A study of Mus musculus with 2 samples.

Results

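The genes described here are 27 genes of B cells and lymphoid follicles, taken by name from a table of 27275 genes. They were chosen as genes of the B cell receptor complex, the germinal centre and lymphoid tissue, without antibody genes or chemokines, and each name was found on 1 row of the table. The table holds FPKM values, the reads of a gene scaled by its length and by the reads of the library. RNA came from the proximal small intestine of naive mice. The tissue labelled KO came from mice of the genotype Spibfl/flVillin-Cre, and the tissue labelled WT from mice of the genotype Spib+Villin-Cre, so that both labels name Villin-Cre. The villin promoter drives Cre recombinase in the intestinal epithelium, and B cells are not known as cells that it marks. The sources used here do not give age, sex, the number of mice behind a library or whether the tissue held Peyer's patches. There was 1 library per genotype, so no difference below has a replicate check and none was tested.

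B cells of the small intestine gather in Peyer's patches and in smaller isolated lymphoid follicles beneath the epithelium. They recognise antigen with a surface antibody that signals through the paired chains CD79A and CD79B. Naive B cells enter follicles along a gradient of the chemokine CXCL13, are kept alive by the cytokine BAFF, and on activation form germinal centres, where their antibody genes are mutated and switched, for the most part to IgA in the gut. Spib, the gene targeted in the KO mice, encodes an ETS factor that M cells of the follicle epithelium need and that B cells also express.

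Nearly all of the 27 genes were lower in the KO library. Their FPKM summed to 27.1 in the KO library and 67.1 in the WT library, 2.47-fold lower in KO, with a counting interval of 2.30 to 2.65. The median member was 2.62-fold lower. The KO value was below the WT value for 26 of the 27 genes, and the exception was the germinal centre repressor gene Bcl6. Of all genes that reached 1 FPKM in at least 1 library, 7910 of 13479 were also lower in KO, beside 21 of 22 members. Intervals here are 95% intervals for counting error only, obtained from whole reads recovered from the FPKM values. They leave out all variation between mice and between pieces of tissue. In whole tissue, fewer cells of a type and less RNA per cell cannot be told apart.

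The libraries were of similar depth, with 17658566 implied reads in the KO library and 17425640 in the WT library, of which 1653 and 3606 fell on the members. Spib itself had 0.592 FPKM in the KO library, from 30 reads, against 4.94 FPKM in the WT library, from 247 reads, 8.34-fold lower (5.70 to 12.6). The deletion is labelled as epithelial, while the Spib of the tissue comes from epithelium and B cells together, and their shares were not tested. Relative to Cd79a, Spib stood at 0.167 in the KO library and 0.543 in the WT library.

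**Figure D1:**
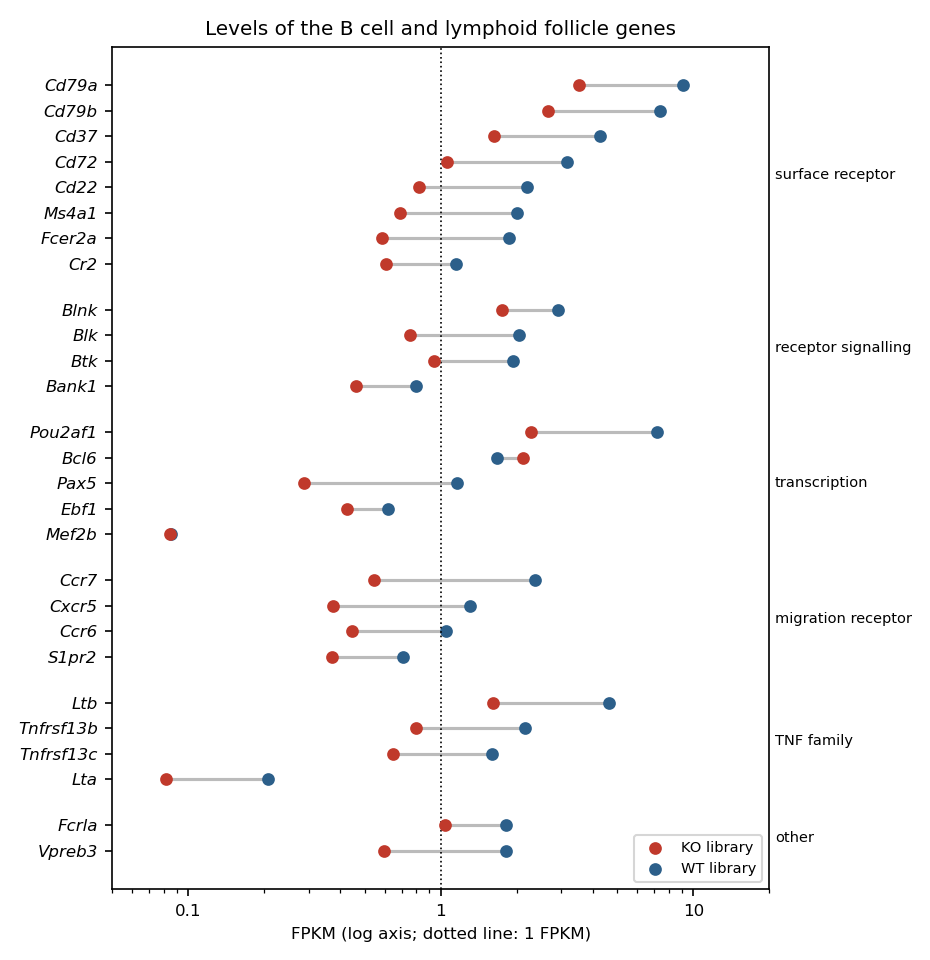
FPKM of each of the 27 genes on a log axis, KO library in red and WT library in blue, grouped by role, with a dotted line at 1 FPKM. KO points lie to the left of WT points for every gene except Bcl6, and the points of Mef2b, at 0.0844 FPKM in KO and 0.0855 FPKM in WT, fall on each other.

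Of the 27 genes, 22 reached 1 FPKM in at least 1 library and were compared with the 13479 genes that did so. On the scale log2((KO FPKM + 1) / (WT FPKM + 1)), which compresses the differences of low genes, the median of these 22 was -0.81, while that of all genes compared was -0.05. At least 2-fold lower on this scale were 7 members, beside 2.51% of all genes compared (338 genes), or 1.53% when antigen receptor segments are left out. None was 2-fold higher, beside 1.61% of all genes. The 7 were Pou2af1, Cd79b, Cd79a, Ccr7, Ltb, Cd72 and Cd37. Cd37 lay just inside the threshold at -1.001, and the nearest gene outside it was Fcer2a at -0.85. By the plain ratio of FPKM, 18 of the 22 were at least 2-fold lower, beside 4.83% of all genes compared and 5.99% of those with 1 to 10 FPKM in the library where they were higher, a range that holds all 22. The counting interval of the fold lay wholly below 1 for 21 of the 22, a much looser measure that 27.6% of the genes compared also met. The other 5 members, Ebf1, Bank1, S1pr2, Lta and Mef2b, were under 1 FPKM in both libraries.

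**Figure D2:**
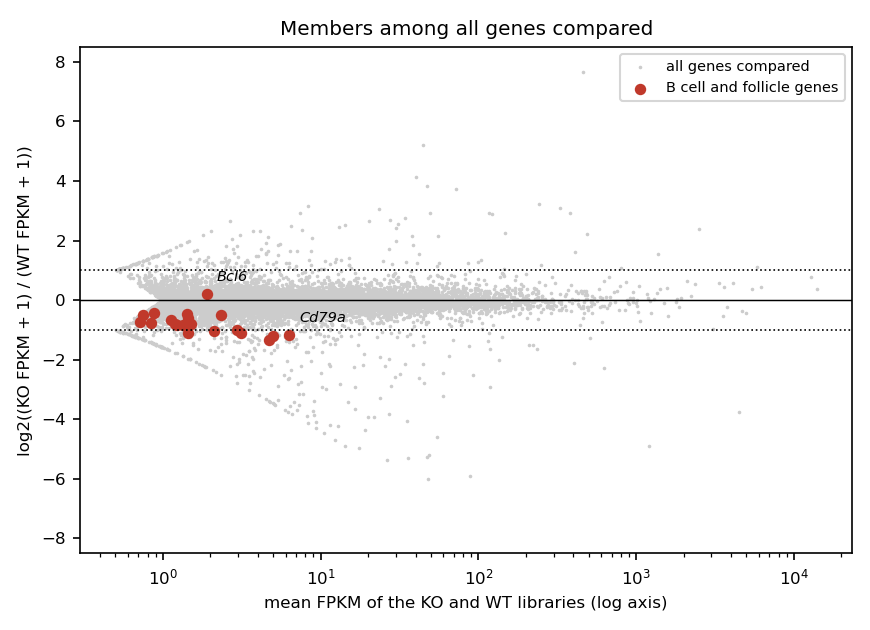
Log2((KO FPKM + 1) / (WT FPKM + 1)) against the mean FPKM of the libraries for the 13479 genes compared in grey and the 22 members among them in red, with dotted lines at 2-fold. The members sit at the low end of the expression range, and all but Bcl6 lie below 0.

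Promoter sequence is shown for 5 members because most of the group differed together and because ETS factors of the Spib kind bind a short purine motif, the PU box. RefSeq windows of the build GRCm38.p6, from 250 bases before to 50 after an annotated start, were found for 22 of the members and not for Cd79b, Ms4a1, Cxcr5, Ccr7 and Blk. Each stretch below ends at the outermost start annotated by RefSeq or GENCODE M21 and is written 5′ to 3′ on the strand of the gene. Capitals mark the PU box GAGGAA or its reverse complement TTCCTC and, in Ccr6, also the octamer ATTTGCAT. The first 4 belong to genes that were lower in the KO library, and the last to Bcl6.
Cd79a, chr7:24897247-24897380, plus strand: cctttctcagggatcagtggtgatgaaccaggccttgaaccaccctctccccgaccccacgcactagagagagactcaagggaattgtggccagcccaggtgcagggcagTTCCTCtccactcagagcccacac
Cd72, chr4:43454629-43454876, minus strand: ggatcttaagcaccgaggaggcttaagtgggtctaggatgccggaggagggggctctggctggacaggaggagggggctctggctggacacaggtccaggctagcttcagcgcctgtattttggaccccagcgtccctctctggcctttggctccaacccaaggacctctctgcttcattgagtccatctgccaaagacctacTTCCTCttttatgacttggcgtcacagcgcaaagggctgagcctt
Ltb, chr17:35194257-35194438, plus strand: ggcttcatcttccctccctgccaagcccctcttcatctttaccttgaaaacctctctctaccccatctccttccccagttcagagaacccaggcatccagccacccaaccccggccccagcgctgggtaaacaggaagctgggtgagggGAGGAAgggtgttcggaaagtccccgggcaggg
Ccr6, chr17:8235793-8236042, plus strand: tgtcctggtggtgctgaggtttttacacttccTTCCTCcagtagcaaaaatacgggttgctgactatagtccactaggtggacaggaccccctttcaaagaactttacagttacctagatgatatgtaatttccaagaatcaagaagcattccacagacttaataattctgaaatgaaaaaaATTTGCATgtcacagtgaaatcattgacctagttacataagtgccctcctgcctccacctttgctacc
Bcl6, chr16:23988853-23989102, minus strand: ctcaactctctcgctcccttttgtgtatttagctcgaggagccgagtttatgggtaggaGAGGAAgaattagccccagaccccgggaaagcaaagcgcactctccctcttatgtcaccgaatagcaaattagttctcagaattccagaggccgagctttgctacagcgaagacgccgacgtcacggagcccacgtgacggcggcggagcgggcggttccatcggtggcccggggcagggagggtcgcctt

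In these stretches the PU box began 24 bases before the start in Cd79a, 45 in Cd72 and 33 in Ltb, but 218 in Ccr6 and 191 in Bcl6. Bcl6, which was not lower in the KO library, therefore carries the letters too. Over whole windows on both strands, 10 of 27 member windows held a PU box, or 37.0%, and so did 28.3% of all 32851 windows. The octamer, which the Oct factors bind together with the coactivator encoded by Pou2af1, or its reverse complement ATGCAAAT was in 4 of the member windows, 14.8%, and in 1.74% of all windows. Those 4 belong to Ccr6, Blnk, Vpreb3 and Mef2b. The letters TCCCNNGGG, a core of the site of the factor EBF, or their reverse complement CCCNNGGGA were in 1 member window, that of Cd22, or 3.70%, and in 6.56% of all windows. The 5 stretches printed were picked from the windows that hold a PU box, so their matches are no finding, and a match describes letters only.

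The chains of the antigen receptor complex were the most abundant members in both libraries. Cd79a (ENSMUSG00000003379, plus strand of chromosome 7, 24897381 to 24902197, mm10), the promoter of which is printed above, had 3.54 FPKM in the KO library, from 91 reads, against 9.10 FPKM in the WT library, from 231 reads, 2.57-fold lower (2.01 to 3.32). Its partner Cd79b (minus strand of chromosome 11, 106311341 to 106314762) had 2.65 FPKM from 67 reads in KO and 7.38 FPKM from 184 reads in WT, 2.78-fold lower (2.09 to 3.74). The ratio of Cd79a to Cd79b was thus nearly the same, 1.33 in the KO library and 1.23 in the WT library. Ms4a1, which encodes the B cell surface protein CD20, had 0.686 FPKM from 75 reads in KO against 2.003 FPKM from 216 reads in WT, 2.92-fold lower (2.23 to 3.85).

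Surface receptors that tune the antigen signal were lower to much the same extent. Cd22, an inhibitory lectin that binds sialic acid, had 0.820 FPKM in KO and 2.197 FPKM in WT, 2.68-fold lower (2.04 to 3.56). Cd72, an inhibitory C-type lectin, had 1.06 FPKM in KO and 3.17 FPKM in WT, 2.99-fold lower (2.24 to 4.04). The tetraspanin gene Cd37, found in B cells and other leukocytes, had 1.62 FPKM in KO against 4.25 FPKM in WT, 2.62-fold lower (2.07 to 3.33). Receptors for complement and IgE mark mature follicular B cells, and the intervals of these 2 genes overlap. Fcer2a, the low-affinity IgE receptor CD23, had 0.586 FPKM in KO against 1.86 FPKM in WT, 3.17-fold lower (2.11 to 4.87). Cr2, the complement receptor CD21 that follicular dendritic cells also carry, had 0.607 FPKM in KO against 1.15 FPKM in WT, 1.89-fold lower (1.45 to 2.48). All 8 surface receptor genes together summed to 11.6 FPKM in KO and 31.1 FPKM in WT.

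Genes of 4 signalling proteins behind the receptor, several of them known from other blood cells too, summed to 3.90 FPKM in KO and 7.67 FPKM in WT, 1.97-fold lower. Blk, a Src family kinase of B cells, had 0.756 FPKM in KO against 2.04 FPKM in WT, 2.70-fold lower (1.82 to 4.08). Btk, the kinase that activates phospholipase C and that myeloid cells also use, had 0.935 FPKM in KO and 1.93 FPKM in WT, 2.07-fold lower (1.47 to 2.94). The adaptor gene Blnk, which links the kinase SYK to BTK, had 1.75 FPKM from 185 reads in KO against 2.90 FPKM from 303 reads in WT, 1.66-fold lower (1.38 to 2.004). Blnk was therefore past none of the 2-fold thresholds in spite of having the second most reads of the members in WT. The scaffold gene Bank1 had 0.461 FPKM in KO and 0.797 FPKM in WT, 1.73-fold lower (1.25 to 2.41).

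Transcription factors of the group ran from the second lowest ratio to the only one above 1. Pou2af1, the B cell coactivator of Oct factors that germinal centres need, had 2.27 FPKM from 102 reads in KO against 7.18 FPKM from 319 reads in WT, 3.17-fold lower (2.53 to 4.001). Pax5, the factor that commits cells to the B lineage and is shut off in plasma cells, had 0.288 FPKM from 45 reads in KO and 1.15 FPKM from 178 reads in WT, 4.01-fold lower (2.88 to 5.69). Both were lower by more than the receptor chains in value, with intervals that overlap theirs. Ebf1 acts upstream of Pax5 in B cells and is also expressed by stromal cells, and it had 0.424 FPKM in KO against 0.618 FPKM in WT, 1.46-fold lower (1.07 to 1.99). Bcl6, the repressor that germinal centre B cells and follicular helper T cells require and that is expressed outside lymphocytes too, had 2.11 FPKM from 250 reads in KO and 1.67 FPKM from 195 reads in WT, 1.27-fold higher (1.04 to 1.53). Ordered by level from the highest, it stood at place 4 of the members in the KO library and at place 17 in the WT library. Mef2b, a germinal centre factor, could not be compared at 0.0844 FPKM in KO and 0.0855 FPKM in WT. Its recovered count of 1 read per library is the smallest pair with that ratio, so the true count may be higher.

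The chemokine and lipid receptors that place cells in the follicle included the lowest ratio of all. Ccr7, which guides B cells, T cells and dendritic cells to CCL19 and CCL21, had 0.544 FPKM from 19 reads in KO against 2.35 FPKM from 81 reads in WT, 4.32-fold lower (2.60 to 7.54). Cxcr5, the CXCL13 receptor of follicular B and helper T cells, had 0.374 FPKM from 22 reads in KO and 1.31 FPKM from 76 reads in WT, 3.501-fold lower (2.15 to 5.91). Both were lower by more than the median member in value, with intervals that hold the median. Ccr6, with which B cells and innate lymphoid cells reach the CCL20 made by follicle epithelium, had 0.447 FPKM in KO against 1.05 FPKM in WT, 2.34-fold lower (1.27 to 4.51). S1pr2, which confines germinal centre B cells and is also expressed in vessels, had 0.369 FPKM in KO against 0.706 FPKM in WT, 1.91-fold lower (1.35 to 2.73). The intervals of Ccr7, Cxcr5 and Ccr6 overlap, so their order is not resolved at this depth.

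Among the TNF family genes, the lymphotoxin chain gene Ltb and the receptors for BAFF were lower in the KO library, while the other chain, Lta, had too few reads for a direction. Ltb (plus strand of chromosome 17, 35194439 to 35196320), a product of B cells, T cells and innate lymphoid cells, had 1.61 FPKM from 43 reads in KO against 4.62 FPKM from 122 reads in WT, 2.88-fold lower (2.02 to 4.17). Its neighbour Lta, 6844 bases away, had 2 reads in KO and 5 in WT, a 2.53-fold difference whose interval of 0.415 to 26.6 allows either direction. Tnfrsf13c, the BAFF receptor on which naive B cells depend, had 0.646 FPKM in KO and 1.59 FPKM in WT, 2.47-fold lower (1.49 to 4.201). Tnfrsf13b encodes TACI, the receptor for BAFF and APRIL on activated B cells and plasma cells, and it had 0.799 FPKM in KO and 2.14 FPKM in WT, 2.69-fold lower (1.85 to 3.97). The ratio of Tnfrsf13b to Tnfrsf13c was 1.24 in the KO library and 1.35 in the WT library.

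Of the remaining members, Fcrla, an intracellular relative of the Fc receptors found in B cells, had 1.04 FPKM in KO and 1.81 FPKM in WT, 1.74-fold lower (1.11 to 2.78). Vpreb3, a partner of immunoglobulin chains during their assembly in B cells, had 0.593 FPKM from 9 reads in KO against 1.80 FPKM from 27 reads in WT, 3.04-fold lower (1.39 to 7.35).

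For most of the group, the ratio of KO to WT could not be told apart from the group median at this depth. The interval of 21 of the 27 genes held the median ratio of 0.382, which was taken from these same genes. The 6 that did not were Pax5, which was lower than that, and Cr2, Bank1, Blnk, Ebf1 and Bcl6, which were above it. The 21 include Lta and Mef2b, the intervals of which are too wide to show likeness. The order of levels among the 27 was similar in the libraries, with a Spearman rank correlation of 0.85 across genes. It is given as a description because genes of 1 library are not replicates. Cd79a, Cd79b and Pou2af1 were the 3 highest, in this order, in both libraries. By textbook expression, 15 members are largely restricted to B cells, among them Cr2 and Cxcr5 with their known follicular dendritic and helper T cells, and 12 are well known in other cells. The restricted genes had a median 2.78-fold lower in KO, with 12 of 15 at least 2-fold lower by the plain ratio. For the others the median was 2.196-fold lower, with 7 of 12 past 2-fold. These counts include genes under 1 FPKM. Over the whole table, without that filter, 4260 of 27275 genes were at least 2-fold lower by the plain ratio. Exon bases are shared with another annotated gene for 7 members: Bcl6, Cd22, Cd37, Cd72, Cxcr5, Mef2b and Pax5. The sources used here do not say whether counting used the strand, so reads of such partners cannot be told apart.

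**Figure D3:**
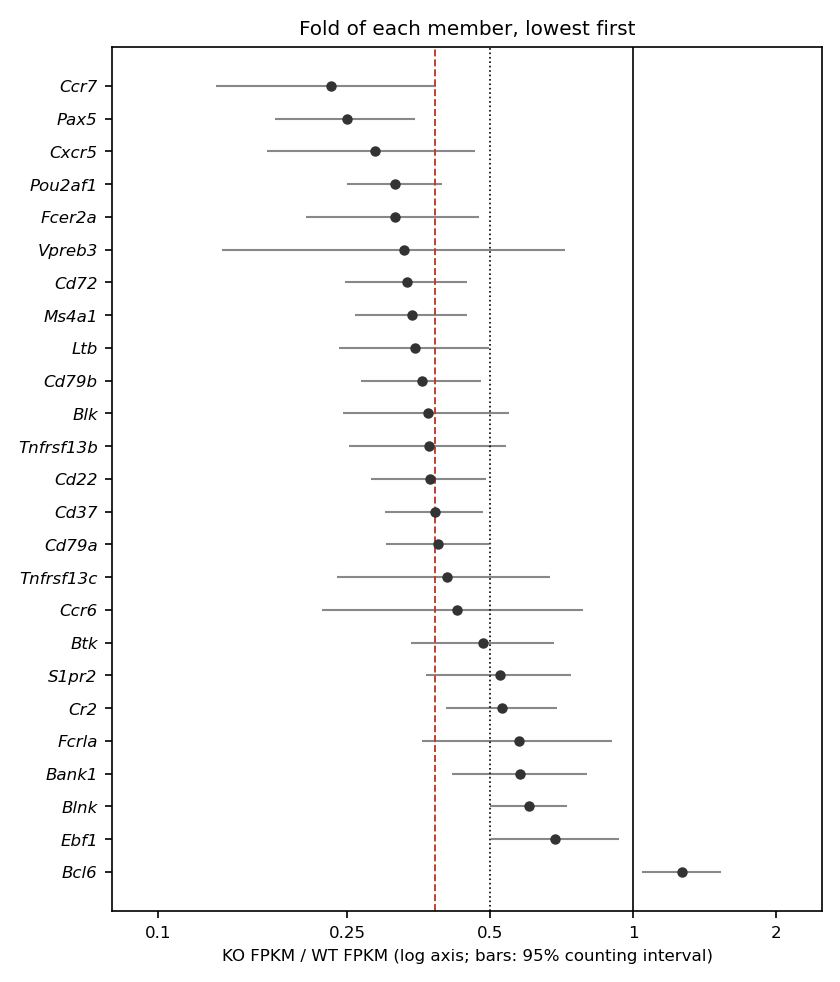
Ratio of KO to WT FPKM on a log axis for 25 members, lowest at the top, with bars for the 95% counting interval, a solid line at 1, a dotted line at 0.5 and a red dashed line at the median of all 27, 0.382. Lta and Mef2b, with fewer than 10 reads in all, are left out. Every interval but that of Bcl6 lies below 1.

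Among genes outside the group, 2 that are known from germinal centre B cells had lower ratios still, at very few reads. Gcsam, a signalling adaptor, had 2 reads in KO against 23 in WT, 11.7-fold lower (2.88 to 102). Nuggc, a nuclear GTPase, had 1 read in KO and 18 in WT, 18.2-fold lower (2.88 to 760.0). These genes belong to a list of germinal centre and B cell state genes and were singled out after their values were seen. The lower ends of both intervals lie below the 3.32-fold upper end of Cd79a. Both genes were under 1 FPKM and so were not among the genes compared.

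The rest of that list showed smaller differences, with 1 large one in the other direction. Of the 21 genes measured, 18 were compared, with none 2-fold lower, 1 higher and a median log2 ratio of -0.31. By the plain ratio, 6 of the 21 were at least 2-fold lower, beside 4260 of all 27275 genes without a filter. Ikzf1, a lymphoid factor of the Ikaros family named after its values were seen, had 1.35 FPKM in KO against 3.01 FPKM in WT. The most abundant, the interferon regulatory factor gene Irf8, had 13.4 FPKM in KO and 18.4 FPKM in WT, and the death receptor gene Fas had 6.79 FPKM in KO and 9.14 FPKM in WT. Rgs13, a regulator of G-protein signalling known from germinal centre B cells and from tuft cells, had 23.0 FPKM from 671 reads in KO against 3.36 FPKM from 97 reads in WT, 6.83-fold higher (5.51 to 8.54). Which cells carried it was not tested.

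**Figure D4:**
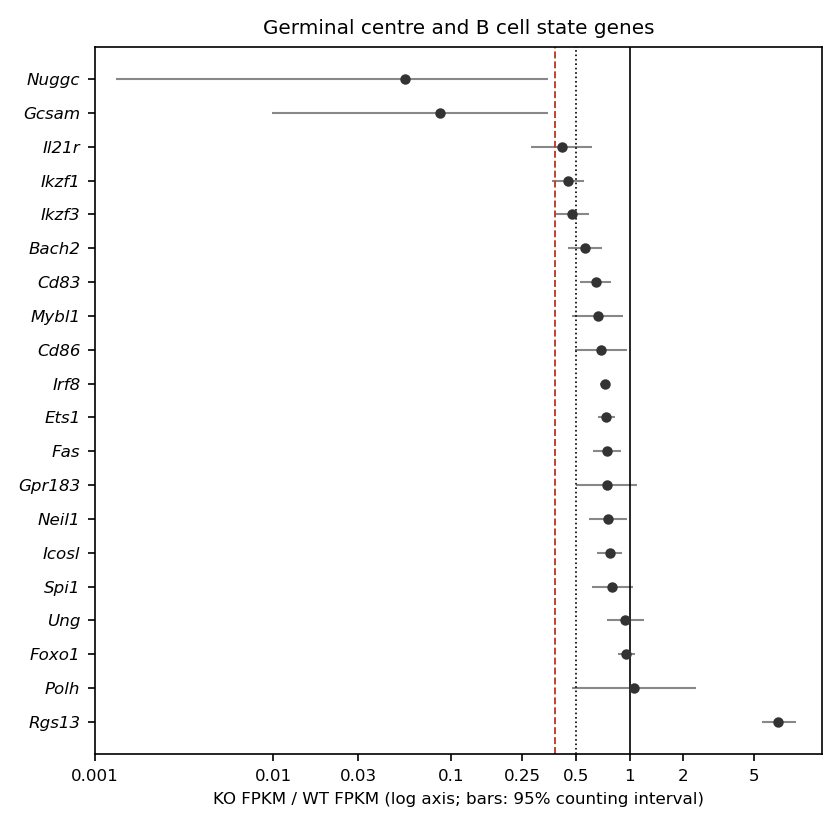
Ratio of KO to WT FPKM on a log axis for 20 germinal centre and B cell state genes, lowest at the top, with 95% counting intervals, a solid line at 1, a dotted line at 0.5 and a red dashed line at the member median of 0.382. Nuggc and Gcsam lie far to the left of the rest, with wide intervals from 1 or 2 KO reads, and Rgs13 lies far to the right.

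Other genes of antigen receptor signalling differed by less than the members at the median. Of 26 measured, 24 were compared, with 1 at least 2-fold lower, none higher and a median log2 ratio of -0.24. The lower gene was Pik3ap1, an adaptor that links receptors to PI3 kinase, at 4.89 FPKM in KO against 11.02 FPKM in WT, 2.25-fold lower (1.80 to 2.84). By the plain ratio, 5 of the 26 were at least 2-fold lower, beside 4260 of all 27275 genes without a filter. The 3 most abundant genes of the list differed little. The interval of 16 of the 26 lay wholly below 1, beside 4223 of 26984 genes with recovered reads and no filter. The tetraspanin gene Cd81 had 24.7 FPKM in KO and 24.0 FPKM in WT, Vav2, an exchange factor for small GTPases, had 11.4 FPKM in KO and 12.1 FPKM in WT, and Plcg2, the phospholipase downstream of BTK, had 10.9 FPKM in KO and 12.3 FPKM in WT.

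Genes of the follicle stroma and of lymphoid organ formation were mostly nearer to 0 than the members. Of 21 measured, 18 were compared, with 2 at least 2-fold lower, none higher and a median log2 ratio of -0.25. By the plain ratio, 5 of the 21 were at least 2-fold lower, beside 4260 of all 27275 genes without a filter. Cxcl13, the chemokine that CXCR5 senses, had 2.95 FPKM in KO and 7.29 FPKM in WT, 2.47-fold lower (1.81 to 3.39). Chst4, a sulfotransferase of lymphoid high endothelial venules, had 8.11 FPKM in KO against 18.2 FPKM in WT, 2.24-fold lower (1.97 to 2.56). The 3 most abundant genes of the list differed by less. Ccl21a, a CCR7 ligand gene, had 17.9 FPKM in KO and 25.9 FPKM in WT, and the lymphotoxin receptor gene Ltbr had 34.7 FPKM in KO and 39.3 FPKM in WT. Id2, a factor that innate lymphoid cells need, had 16.5 FPKM in KO against 18.3 FPKM in WT. The gene of BAFF itself, Tnfsf13b, named after its values were seen, had 1.94 FPKM from 235 reads in KO against 0.844 FPKM from 101 reads in WT, 2.30-fold higher (1.81 to 2.93), while its receptor genes above were lower.

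Markers of other immune cells were mostly lower in the same library, and their part in the results for shared genes such as Ltb, Ccr7 and Cd37 was not tested. For T cell genes the median log2 ratio was -0.63, with 11 compared of 20 measured and none past 2-fold on that scale. By the plain ratio, 13 of the 20 were at least 2-fold lower, with a median of 2.31-fold, beside 19 of the 27 members with a median of 2.62-fold. Without a filter, 4260 of all 27275 genes were at least 2-fold lower by this ratio. The T cell genes summed to 13.6 FPKM in KO and 28.5 FPKM in WT. Of these, Cd8a had 1.53 FPKM in KO against 3.53 FPKM in WT, Thy1 had 2.12 FPKM in KO and 3.08 FPKM in WT, and Cd4 had 1.70 FPKM in KO and 3.07 FPKM in WT. Plasma cell genes had a median of -0.53 over 14 compared, with 4 at least 2-fold lower and 10 between. By the plain ratio, 8 of 15 were at least 2-fold lower, with a median of 2.67-fold, close to the 2.62-fold of the members. They summed to 297 FPKM in KO and 500 FPKM in WT. The 4 lower on the log2 scale were the joining chain gene Jchain, at 57.8 FPKM in KO and 180.5 FPKM in WT, the antibody chaperone gene Mzb1, at 2.94 FPKM in KO and 10.8 FPKM in WT, the NAD hydrolase gene Cd38, at 19.6 FPKM in KO and 57.1 FPKM in WT, and the secretory pathway gene Derl3, at 0.796 FPKM in KO and 2.65 FPKM in WT. Mzb1 shares exon bases with an overlapping gene, so its counts are uncertain. A 2-fold difference was not reached by Xbp1, at 67.9 FPKM in KO and 85.0 FPKM in WT, or by Txndc5, at 50.5 FPKM in KO and 56.6 FPKM in WT. Which cells carried the genes of this list was not tested, so its median and sum need not describe plasma cells alone. Macrophage and dendritic cell genes had a median of -0.36 over 14 compared, none past 2-fold, or 2 of 18 measured by the plain ratio, and summed to 167 FPKM in KO and 239 FPKM in WT. Lyz2 had 60.4 FPKM in KO and 91.9 FPKM in WT, C1qa had 28.4 FPKM in KO and 42.6 FPKM in WT, and C1qb had 22.5 FPKM in KO and 33.5 FPKM in WT. Of the 14 compared, 12 were below 0. Adgre1 and Mrc1, named after their values were seen, were not. Adgre1 had 5.51 FPKM in KO and 4.99 FPKM in WT, and Mrc1 had 3.71 FPKM in KO and 3.53 FPKM in WT. Xcr1, under 1 FPKM in both libraries, was also higher in KO. The intervals of these genes all held a ratio of 1. No gene of these 3 lists was at 0 in either library.

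Genes shared by all leukocytes had a median of -0.75 over 12 genes, with 3 at least 2-fold lower on either scale, and summed to 81.8 FPKM in KO and 158 FPKM in WT. The 3 were Ptprcap, at 1.65 FPKM in KO and 8.11 FPKM in WT, Cyba, at 22.8 FPKM in KO and 50.7 FPKM in WT, and Laptm5, at 4.72 FPKM in KO and 10.8 FPKM in WT. Ptprcap, which shares exon bases with other genes, is uncertain for that reason. Cd52 had 9.68 FPKM in KO against 18.6 FPKM in WT, and the actin regulator gene Coro1a had 9.58 FPKM in KO and 17.8 FPKM in WT. Ptprc, the pan-leukocyte phosphatase CD45, had 4.31 FPKM from 1395 reads in KO and 5.54 FPKM from 1769 reads in WT, 1.29-fold lower (1.20 to 1.38). The ratio of Cd79a to Ptprc was therefore 0.820 in KO and 1.64 in WT. Measured against the whole leukocyte list, the members summed to 0.332 of its FPKM in KO and 0.425 in WT.

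Epithelial and stromal genes were close to equal at the median. For the 14 epithelial genes the median log2 ratio was -0.08, none past 2-fold, with sums of 8159.9 FPKM in KO and 8161.1 FPKM in WT. Krt8 had 2337 FPKM in KO against 2131 FPKM in WT, Krt20 had 1207 FPKM in KO and 1241 FPKM in WT, and Epcam had 931 FPKM in KO and 979 FPKM in WT. Single epithelial genes ranged from Klf5, 1.29-fold lower in KO, to Krt18, 1.62-fold higher, both named after their values were seen. Stroma and muscle genes had a median of 0.03 over 13 compared, none past 2-fold, with Acta2 at 208 FPKM in KO and 210.2 FPKM in WT, Myh11 at 132 FPKM in KO and 129.5 FPKM in WT, and Des at 50.7 FPKM in KO and 45.8 FPKM in WT. Proliferation genes had a median of -0.18 over 10 genes, none past 2-fold, with Pcna at 50.2 FPKM in KO and 51.3 FPKM in WT, Mki67 at 26.8 FPKM in KO and 29.95 FPKM in WT, and Top2a at 24.8 FPKM in KO and 28.2 FPKM in WT. As a share of the epithelial sum, the members made up 0.333% in KO and 0.822% in WT.

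**Figure D5:**
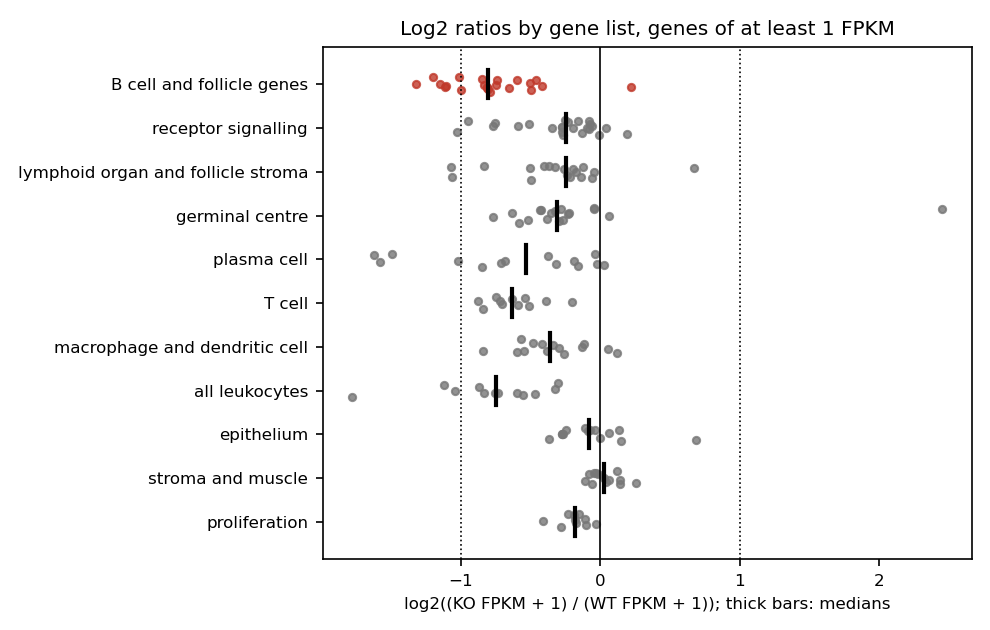
Log2((KO FPKM + 1) / (WT FPKM + 1)) for genes of at least 1 FPKM in either library, members in red and 10 other lists in grey, with thick bars for medians and dotted lines at 2-fold. The median of the members is -0.81, that of all-leukocyte genes -0.75 and that of T cell genes -0.63, while the medians of epithelial, stromal and proliferation genes lie between -0.18 and 0.03.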

How the data were processed

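RNA of small intestine was taken up in TRIzol and its cDNA amplified by SMART-Seq II, per the labels' protocols. The deposited table holds FPKM values from the authors, with 1 column per library. Per the submitters' processing notes, the tools were Bowtie2 2.2.3 and HTSeq 0.6.0 and the build mm10. The sources used here give no role for them, and no annotation, filter, strand setting or pooling.

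Columns were matched to libraries by title. Identifiers were joined to GENCODE M21, which uses the same assembly. FPKM times summed exon length stepped in whole reads, within 0.01, for 90.5% of values above 0 in each library, which gave the depths. Reads followed from exon length for 24 members. For Ccr6, Tnfrsf13c and Mef2b the smallest whole pair with the observed ratio was used, so their read counts are lower bounds. Intervals of single genes are exact Clopper-Pearson intervals at 95%, and that of the sum propagates Poisson error. PCR reads are not independent molecules, so intervals cover counting error only. Recovery was tested on simulated data. With 1 library per genotype, no test was made.

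The members and lists were chosen with earlier results of these data known. Named are all members, Spib, the 3 most abundant genes of each list and those past 2-fold, with exceptions stated. Fdcsp and Tcl1 were not analysed here. Python 3.11.15, pandas 2.3.3 and SciPy 1.17.1 were used.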

Additional observations from a re-analysis of the deposited data

How the results depend on the processing

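No paired analysis was possible because there was 1 library per genotype. The number of members at least 2-fold lower, 7 of 22, depended most on the pseudocount: it was 17 with a pseudocount of 0.1, 0 with 5, and 18 with the plain ratio, which was added after the data were seen. Scaling to TPM gave 15, since a pseudocount of 1 weighs less there. Fewer members were counted in a subset, with 3 of 3 at 5 FPKM or more, 4 of 14 among B cell restricted genes and 3 of 10 among restricted genes without shared exon bases. The median log2 ratio of -0.81 was -1.34 with a pseudocount of 0.1, -0.29 with 5, -1.19 in TPM, -1.20 at 5 FPKM or more and -1.43 for the plain ratio. It was -0.76 after centring on all genes and -0.79 with median-of-ratios scaling. Both settings left 5 members 2-fold lower, without Cd72 (-0.97 and -0.999) and Cd37 (-0.95 and -0.98). The summed log2 ratio of -1.30 was -0.36 relative to the all-leukocyte list. No alternative put a member 2-fold higher or turned the sign of the median or the sum. After centring, which sets the median of all genes compared to 0, 25 of the 27 log2 ratios stayed below 0, all but Bcl6 and Mef2b. Leaving out a replicate was not possible. Lta, Mef2b and Vpreb3 rest on fewer than 10 reads in KO.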
